A study of Mus musculus with 24 samples.

Results

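SNARE proteins are the membrane proteins that fuse transport vesicles with their target membranes, and their transcripts were measured here in the cortical collecting duct (CCD), the tubule that drains the nephrons of the renal cortex. The genes were taken by name: syntaxins (Stx), vesicle-associated membrane proteins (Vamp), the SNAP-25 family (Snap), Vti1a, Vti1b, Bet1, Gosr1, Gosr2, Sec22b, Ykt6, the syntaxin-binding proteins (Stxbp), and Napa and Nsf, which take used complexes apart. The rule matched 41 of the 55416 genes in the table, each on 1 row, and 36 of the 41 had the mean of at least 1 TPM that was set for testing; TPM is a transcript's length-scaled share of its library. Transcript levels came from single microdissected tubules of 10-week-old male C57BL/6 mice, 3 tubules from each of 4 mice with mutant beta-catenin (MUT) and from each of 4 wild-type mice (WT), which makes 24 libraries. Per the labels, MUT mice carried Thr551Ala and Ser552Ala in beta-catenin, while the legend of the table names only the second change. No treatment was compared: the labels call all 24 libraries vehicle, and their protocol describes mice without treatment. How the allele was made, and whether the genotypes were littermates, is not given in the sources used here.

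A SNARE complex is a bundle of helices drawn from both membranes, with Q-SNAREs of the types Qa, Qb and Qc usually on the target side and an R-SNARE usually on the vesicle. Syntaxins supply the Qa helix at the plasma membrane, the SNAP-25 family supplies Qb and Qc in 1 protein, and VAMPs are R-SNAREs. Sec1/Munc18 proteins such as those of Stxbp2 and Stxbp3 hold and guide syntaxins, and the ATPase NSF with its adaptor alpha-SNAP (Napa) recycles the complexes. In principal cells of the collecting duct, vasopressin brings vesicles with the water channel aquaporin-2 (Aqp2) to the apical membrane, and VAMP2, VAMP8, SNAP23, syntaxin-3, syntaxin-4 and Munc18b (Stxbp2) are among the proteins studied in that step. Intercalated cells move the proton pump to and from their surface in a like way.

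The libraries held the markers of the labelled segment. Summed over 12 principal cell markers, mouse means ran from 29845 to 45382 TPM in MUT and from 26982 to 50855 TPM in WT mice, and 12 intercalated cell markers summed to 11440 to 12434 TPM in MUT and 10956 to 12278 TPM in WT mice. MUT mouse 1 (45382 TPM) and WT mouse 2 (50855 TPM) stood above the other 6 mice in principal cell markers. Other tubule segments and blood were also seen: per tubule, the 15 proximal tubule markers summed to 111 to 4685 TPM in MUT and 98.1 to 9078 TPM in WT, the 6 thick ascending limb markers to 24.6 to 440 TPM in MUT and 23.0 to 4851 TPM in WT, and the 5 erythrocyte markers to 0.620 to 203 TPM in MUT and 1.48 to 24918 TPM in WT. Of the 24 tubules, 2 MUT and 5 WT tubules had more than 1000 TPM in at least 1 of these 3 lists, and values without these 7 are given where they bear on a result. Markers of the distal convoluted and connecting tubule summed to 234 to 896 TPM in MUT and 146 to 2385 TPM in WT tubules. Those of macrophages and other leukocytes summed to 80.0 to 1272 TPM in MUT and 62.4 to 1249 TPM in WT tubules. Neither list entered this cut, so the remaining tubules are not free of other cells. All 14 tested proximal tubule, 6 thick ascending limb and 5 erythrocyte markers had lower values in MUT (median differences -1.01, -1.04 and -1.94 on the log2 scale), and all 8 tested endothelial markers higher ones (median 0.20), though 0 passed the test described below. At an unadjusted p under 0.05 in that test were 4.60% of all tested genes. Among the markers these were 5 of the 5 erythrocyte, 1 of the 6 thick ascending limb, 0 of the 14 proximal tubule and 0 of the 8 endothelial ones. Their part in the SNARE values was not tested beyond leaving out the 7 tubules. In a whole tubule, fewer cells of a type and less RNA per cell cannot be told apart. TPM keeps no sequencing depth, so the depth behind these values is unknown.

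A single gene held most of the transcript, and the same gene in all 8 mice, among plasma membrane syntaxins, the SNAP-25 family, VAMPs and syntaxin-binding proteins. Vamp8 was the most abundant of the 41 matched SNARE genes, at 525 ± 20.4 TPM in MUT and 526 ± 23.1 TPM in WT mice (SD over mouse means, n = 4 each). It ranked 286 among all genes of the table by mean TPM. Behind it stood the endosomal syntaxin gene Stx7, the Munc18b gene Stxbp2, the endosomal Qb gene Vti1b, Napa and Vamp2. At the other end, 5 genes averaged under 1 TPM and were not tested, Vamp9, Stx11, Stx19 and Snap25 among them. TPM is scaled for gene length, and on that basis levels are set side by side between genes here. The strand setting is unknown and some of these genes overlap other gene models. The effect of this on comparisons between genes was not tested.

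**Figure D1:**
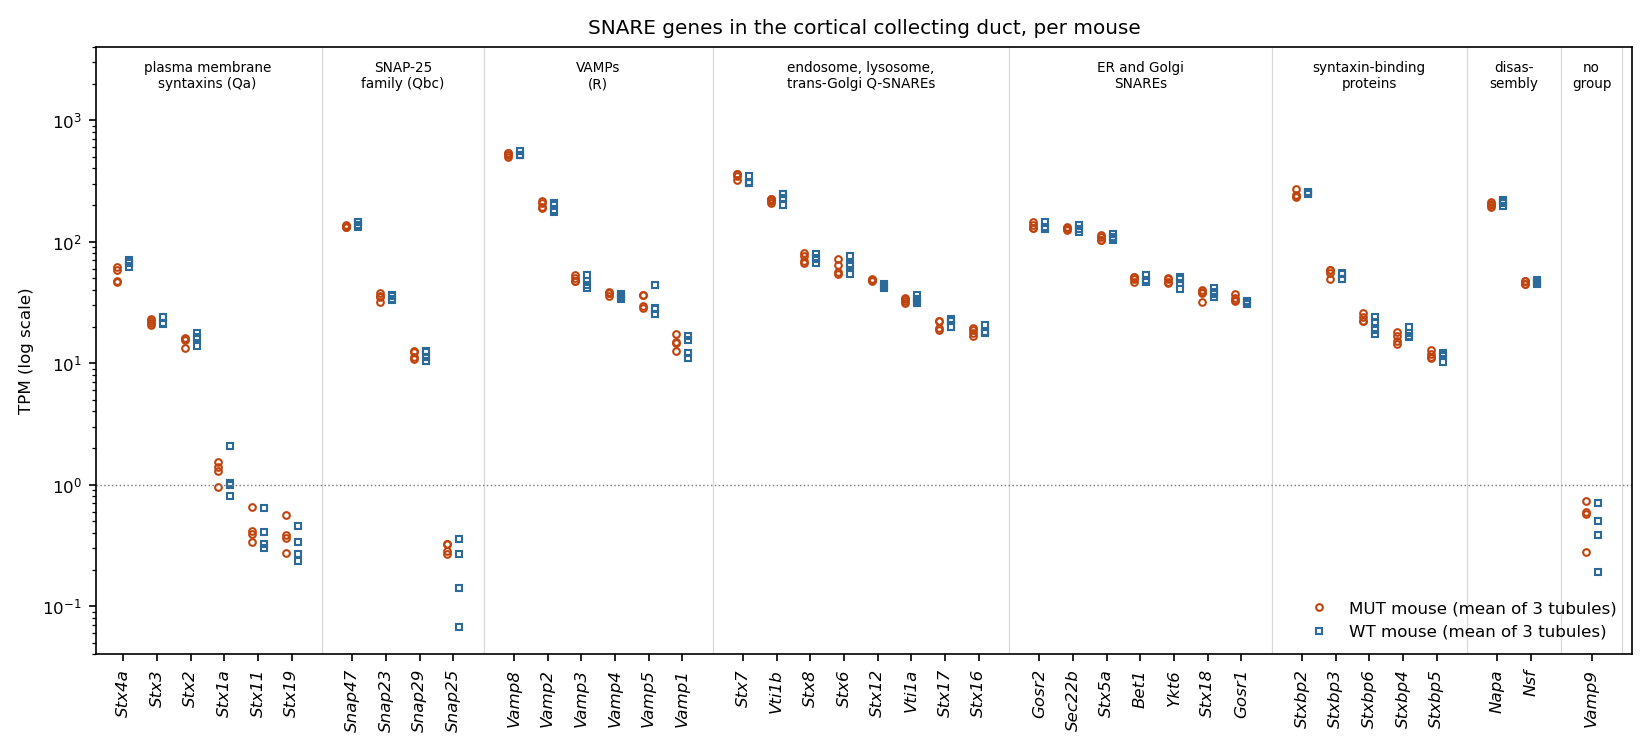
TPM on a log scale for 39 of the 41 SNARE genes, grouped by role and ordered by level within each role. Circles are MUT and squares WT mice, each the mean of 3 tubules, and the dotted line marks 1 TPM. Levels span from under 1 TPM for Snap25 to about 525 TPM for Vamp8, and MUT and WT points lie close together for most genes.

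No SNARE gene passed the test between MUT and WT mice. With limma on log2(TPM + 1) mouse means and Benjamini-Hochberg adjustment over all 15013 tested genes, 0 of the 36 tested SNARE genes passed an adjusted p of 0.05, and 0% of all tested genes did. At an unadjusted p under 0.05 there were 2 SNARE genes, Stx12 with higher and Stx4a with lower values in MUT, which is 5.56% of the 36, against 4.60% of all tested genes. By direction, 2.82% of all tested genes were at that level with higher and 1.79% with lower values in MUT. Of the 36, 20 had a positive difference (55.6%, against 54.3% of all tested genes), and the median difference was 0.01 on the log2 scale, as over all tested genes. The median size of the difference was 0.06 for the SNARE genes and 0.08 for all tested genes, with the largest, that of Stx4a, at 0.32. Differences are MUT minus WT in log2(TPM + 1), a scale that shrinks the differences of low genes, and each is given with its limma standard error (SE).

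**Figure D2:**
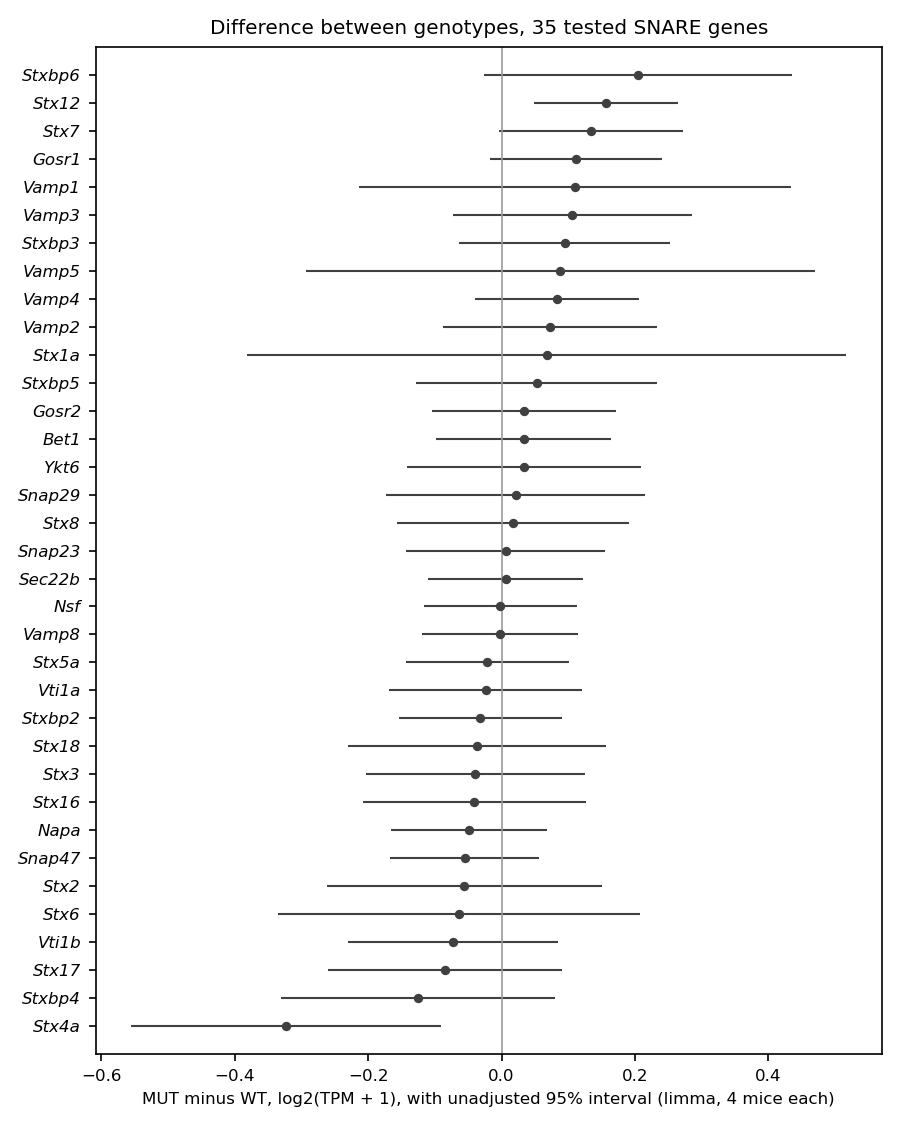
Difference between genotypes for 35 of the 36 tested SNARE genes, as MUT minus WT on the log2(TPM + 1) scale with unadjusted 95% intervals from limma (4 mice each). The intervals of Stx12 (0.16) and Stx4a (-0.32) lie off 0, and neither gene passed after adjustment.

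Among the syntaxins of the plasma membrane, Stx4a (ENSMUSG00000030805), which encodes syntaxin-4, was the most abundant. Its mouse means were 62.1, 58.4, 47.4 and 46.3 TPM in MUT and 70.2, 68.1, 67.2 and 61.4 TPM in WT mice. MUT mice 3 and 4 were lowest, and the genotypes overlapped only through MUT mouse 1, which stood just above WT mouse 4. Single tubules ran from 32.6 to 65.8 TPM with a median of 53.1 TPM in MUT, and from 53.1 to 88.2 TPM with a median of 65.5 TPM in WT. The difference was -0.32 (SE 0.10, limma adjusted p = 0.98, unadjusted 95% interval -0.55 to -0.09). Without the 7 tubules high in markers of other segments or blood it was -0.35 (SE 0.09), and the adjusted p was 0.948. Across every alternative fit it lay between -0.40 and -0.25 and never passed. The spread between tubules of 1 mouse was also wide for Stx4a, with an SD of 0.23 on the log2 scale, and the lowest tubule of all, tubule 3 of MUT mouse 4, was 1 of the 7. Stx4a overlaps another gene model on the opposite strand, and no label says whether counting used strand.

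The other plasma membrane syntaxins were lower. Stx3, which encodes syntaxin-3 of apical membranes, was at 23.2, 22.1, 20.5 and 21.4 TPM in MUT and 20.9, 21.2, 24.0 and 24.0 TPM in WT mice. The genotypes overlapped, and the difference was -0.04 (SE 0.07, limma adjusted p = 0.997, unadjusted 95% interval -0.20 to 0.12). Stx2, which encodes syntaxin-2, averaged 15.2 ± 1.28 TPM in MUT and 15.8 ± 1.59 TPM in WT mice (SD, n = 4 each). In all 24 tubules Stx4a stood above Stx3, with a median ratio over mice of 2.66, and Stx3 above Stx2. Stx4a made up 53.3% to 60.4% of the summed TPM of the 7 plasma membrane syntaxins in MUT mice and 58.8% to 64.7% in WT mice, so these ranges overlapped. Stx1a, a syntaxin of nerve terminals, was at 1.29 ± 0.242 TPM in MUT and 1.22 ± 0.572 TPM in WT mice. Stx11, known from cytotoxic lymphocytes, averaged 0.450 TPM in MUT and 0.419 TPM in WT mice, and Stx19 0.395 TPM in MUT and 0.323 TPM in WT mice.

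Snap47 was the leading gene of the SNAP-25 family, and Snap25 itself was near 0. Snap47, whose product sits largely on internal membranes, was at 136, 133, 131 and 137 TPM in MUT and 137, 145, 145 and 131 TPM in WT mice. Snap23, the broadly expressed partner of syntaxins at the plasma membrane, was at 34.7, 32.1, 37.8 and 35.6 TPM in MUT and 34.0, 36.6, 36.0 and 32.9 TPM in WT mice. The genotypes overlapped in both genes, and for Snap23 the difference was 0.01 (SE 0.07, limma adjusted p = 1.00), with an unadjusted 95% interval from -0.14 to 0.16. Snap47 exceeded Snap23 in all 24 tubules, by a median ratio of 3.97 over mice, and Snap23 exceeded Snap29, which acts in autophagy and endosomal fusion, by 3.03. Snap25, the neuronal member, averaged 0.301 ± 0.0291 TPM in MUT and 0.207 ± 0.128 TPM in WT mice, and its highest tubule reached 0.620 TPM. Among nerve cell markers, the catecholamine enzyme genes Th and Dbh averaged 0.0933 and 0.0304 TPM and Gap43 0.0467 TPM, the lowest of the list. Syp averaged 14.7 TPM, Nefl 3.497 TPM and Uchl1 2.458 TPM, each above 0 in all 24 tubules. Nefl reached 14.09 TPM in its highest tubule. The rest of the list averaged from 0.1592 TPM (Elavl4) to 0.355 TPM (Tubb3). Summed over the 10 nerve cell markers, tubules ran from 16.5 to 25.6 TPM in MUT and from 17.3 to 32.4 TPM in WT. Syp had by far the largest mean in this sum, so the sum is not a measure of nerve cells alone.

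Vamp8 dominated the measured R-SNAREs of the VAMP family. This gene, whose product acts at endosomes and in regulated secretion, was at 541, 541, 519 and 499 TPM in MUT and 518, 561, 514 and 513 TPM in WT mice. Its difference was -0.002 (SE 0.05, limma adjusted p = 1.00), with an unadjusted 95% interval from -0.12 to 0.11. The genotypes overlapped, and the SD between tubules of 1 mouse was 0.06 on the log2 scale, the smallest among the 36 tested SNARE genes. Vamp8 made up 58.1% to 63.1% of the summed TPM of the 6 measured Vamp genes other than Vamp9 in MUT mice and 61.0% to 63.4% in WT mice. Vamp7 was listed for this group but had no row under that symbol, so its level is unknown here and the shares leave it out. Vamp2, the R-SNARE of regulated exocytosis in neurons and in many secretory cells, followed at 189, 192, 207 and 218 TPM in MUT and 200, 183, 209 and 177 TPM in WT mice (difference 0.07, SE 0.07, limma adjusted p = 0.983). The genotypes overlapped, and without the 7 tubules high in other markers the difference was 0.0001. Over the alternatives it ran from there to 0.11, the value without WT mouse 3.

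Vamp3, the recycling endosome R-SNARE known as cellubrevin, was at 47.6, 47.6, 53.5 and 50.4 TPM in MUT and 52.7, 41.5, 44.2 and 47.01 TPM in WT mice (difference 0.11, SE 0.08, limma adjusted p = 0.98). WT mouse 1 stood among the highest MUT mice, so the genotypes overlapped, and the difference was 0.06 without the 7 tubules or without WT mouse 2 and 0.17 without WT mouse 1. Vamp4 of the trans-Golgi averaged 37.4 ± 1.21 TPM in MUT and 35.4 ± 1.60 TPM in WT mice, and Vamp1 14.9 ± 2.02 TPM in MUT and 13.9 ± 2.72 TPM in WT mice. Vamp5, first known from muscle, had the widest spread between mouse means among the 36 tested genes (SD 0.28 on the log2 scale). It was at 36.0, 28.2, 29.7 and 36.2 TPM in MUT and 28.1, 44.1, 25.6 and 28.5 TPM in WT mice. Vamp8 over Vamp2 and Vamp2 over Vamp3 held in all 24 tubules, whereas Vamp4 stood above Vamp5 in 18 of 24 tubules and 7 of 8 mice. Vamp9 averaged 0.546 ± 0.191 TPM in MUT and 0.447 ± 0.216 TPM in WT mice and was listed at 0 in 2 WT tubules.

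**Figure D3:**
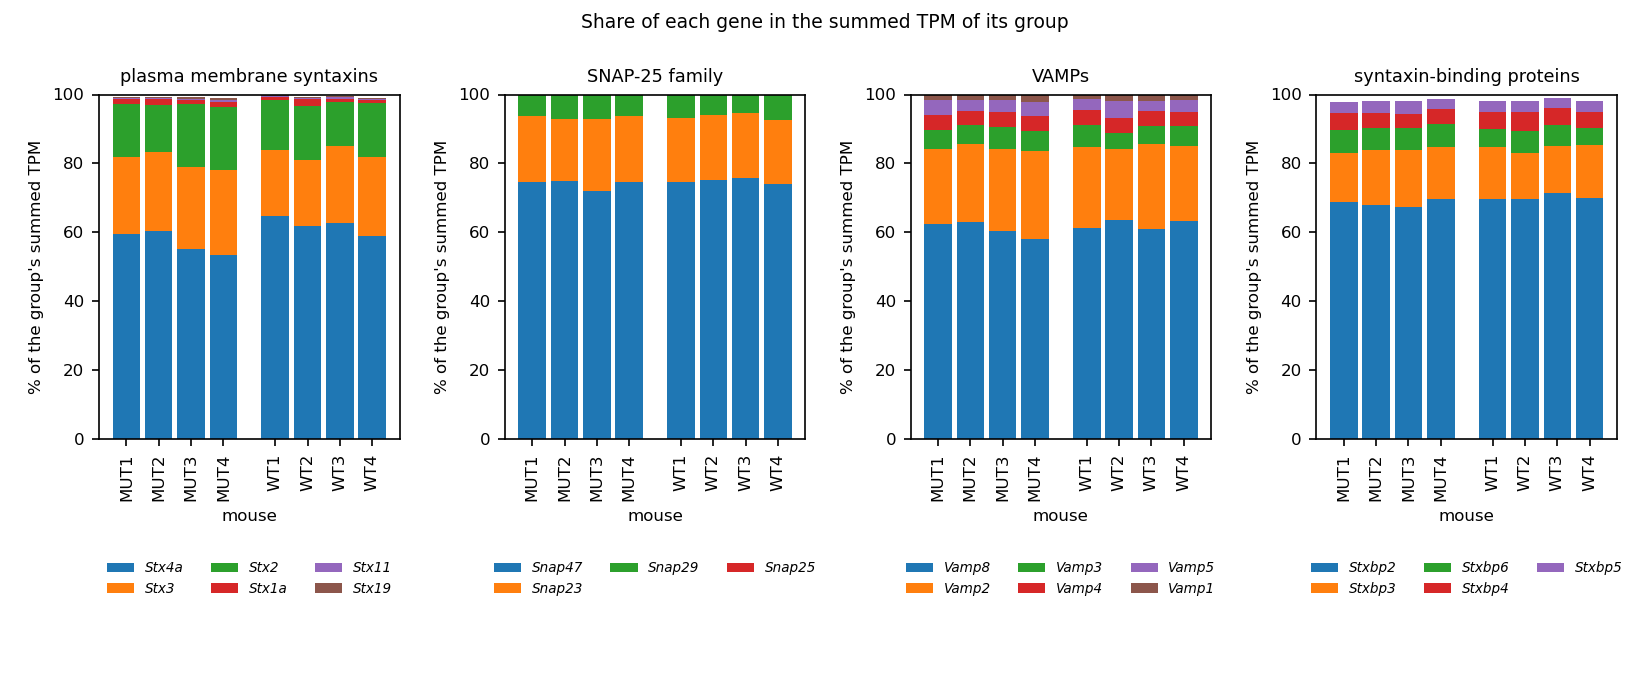
Share of each gene in the summed TPM of its group, in percent, for plasma membrane syntaxins, the SNAP-25 family, VAMPs and syntaxin-binding proteins. Each bar is 1 mouse (mean of 3 tubules), MUT left and WT right, and bars end below 100% where a gene of the group is not drawn. In all 8 mice the leading genes were Stx4a, Snap47, Vamp8 and Stxbp2, and the shares differed little between bars.

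Stx12 (ENSMUSG00000028879), which encodes the early and recycling endosome syntaxin also called syntaxin-13, had the smallest p among the SNARE genes. Its mouse means were 47.3, 47.9, 48.6 and 49.0 TPM in MUT and 43.3, 45.0, 42.9 and 41.5 TPM in WT mice. All 4 MUT mice stood above all 4 WT mice, by little. Single tubules ran from 44.6 to 52.2 TPM in MUT (median 48.2 TPM) and from 39.7 to 48.6 TPM in WT (median 42.8 TPM), so tubules of the genotypes overlapped. The difference was 0.16 (SE 0.05, limma adjusted p = 0.98), with an unadjusted 95% interval from 0.05 to 0.26. It ranked 137 by p among the 15013 tested genes. Across the alternatives it ran from 0.14 to 0.18, and it was 0.16 (SE 0.06) without the 7 tubules high in other markers.

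Stx7 (ENSMUSG00000019998), the late endosome and lysosome syntaxin gene, was the most abundant Q-SNARE gene. It was at 357, 324, 360 and 347 TPM in MUT and 311, 347, 303 and 304 TPM in WT mice. MUT mouse 2 was the lowest MUT mouse and WT mouse 2 the only WT mouse above it, so the genotypes overlapped. The difference was 0.13 (SE 0.06, limma adjusted p = 0.98), with an unadjusted 95% interval from -0.003 to 0.27. Leaving out 1 mouse at a time, it ran from 0.11 without WT mouse 3 (SE 0.07, limma adjusted p = 0.974) to 0.18 without WT mouse 2 (SE 0.05, limma adjusted p = 0.571), and without the 7 tubules high in other markers it was 0.19 (SE 0.08, adjusted p = 0.948).

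The partners of syntaxin-7 in late endosome fusion, Vti1b (Qb) and Stx8 (Qc), had nearly equal or lower means in MUT. Vti1b averaged 217 ± 8.24 TPM in MUT and 230 ± 20.9 TPM in WT mice, and Stx8 73.5 ± 6.60 TPM in MUT and 73.0 ± 5.20 TPM in WT mice. Stx6, a Qc gene of the trans-Golgi and endosomes, was at 72.6, 64.0, 53.8 and 55.7 TPM in MUT and 53.8, 75.9, 62.8 and 65.0 TPM in WT mice. Its highest mice, WT mouse 2 and MUT mouse 1, were the ones highest in principal cell markers, an observation made after the values were seen. Vti1a, Stx17 and Stx16, for trans-Golgi, autophagosome and endosome-to-Golgi fusion, averaged 32.9 ± 1.25, 20.6 ± 1.85 and 18.1 ± 1.28 TPM in MUT and 33.5 ± 2.35, 21.8 ± 1.28 and 18.6 ± 1.29 TPM in WT mice. The order Stx7, Vti1b, Stx8, Stx6, Stx12, Vti1a, Stx17, Stx16 held in all 8 mice between neighbours, and in at least 21 of 24 tubules. Of these 8 genes 3 had higher and 5 lower values in MUT.

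**Figure D4:**
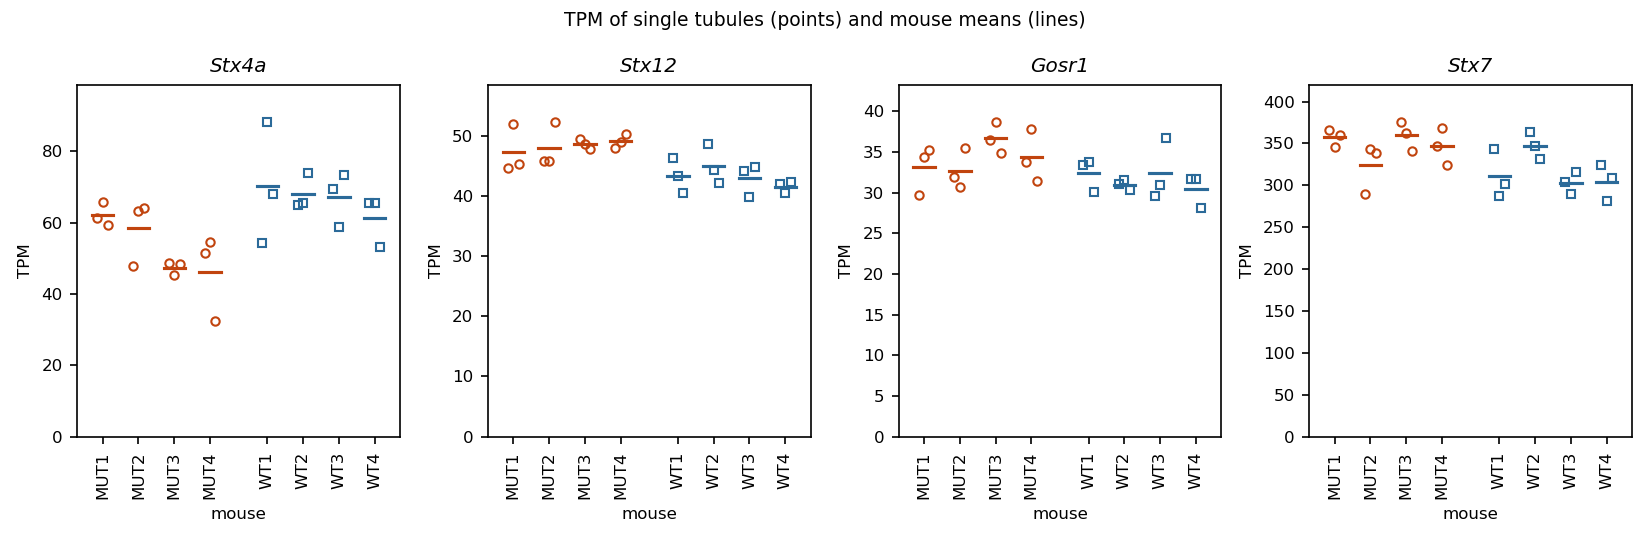
TPM of single tubules (points) and mouse means (lines) for Stx4a, Stx12, Gosr1 and Stx7, with MUT mice left and WT mice right. MUT mouse means of Stx12 and Gosr1 all lie above those of WT, while tubules overlap in all 4 genes, and Stx4a is lowest in MUT mice 3 and 4.

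The SNAREs of the endoplasmic reticulum (ER) and Golgi had similar levels in both genotypes, and none passed the test. Gosr1 (ENSMUSG00000010392), the Golgi Qb-SNARE GS28, was the other gene whose mouse means did not overlap, at 33.1, 32.7, 36.7 and 34.4 TPM in MUT and 32.4, 31.0, 32.5 and 30.5 TPM in WT mice. The lowest MUT mouse exceeded the highest WT mouse by less than 1 TPM, and the difference was 0.11 (SE 0.06, limma adjusted p = 0.98, unadjusted 95% interval -0.02 to 0.24). Without the 7 tubules high in other markers it was 0.09 (SE 0.08, limma adjusted p = 0.948), and across the alternatives it ran from 0.08 to 0.13. Stx12 and Gosr1 make 2 of 36 SNARE genes (5.56%) with every MUT mouse above every WT mouse, against 1.86% of all tested genes. None of the 36 had every MUT mouse below every WT mouse, against 1.17% of all tested genes. Gosr2 (membrin), the R-SNARE gene Sec22b and the Golgi syntaxin gene Stx5a were the most abundant of this tier, at 136 ± 7.29, 128 ± 2.70 and 107 ± 4.61 TPM in MUT and 133 ± 8.66, 128 ± 7.10 and 109 ± 5.10 TPM in WT mice. Bet1 (Qc), the R-SNARE gene Ykt6 and the ER syntaxin gene Stx18 averaged 49.7 ± 2.26, 47.5 ± 2.08 and 37.1 ± 3.78 TPM in MUT and 48.8 ± 2.78, 46.8 ± 4.40 and 38.0 ± 2.75 TPM in WT mice. The levels of Gosr2 and Sec22b, and of Bet1 and Ykt6, were within each other's spread, with the first of each pair higher in 7 of 8 mice and in 16 and 13 of 24 tubules.

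Stxbp2, for the epithelial Munc18b, took most of the transcript of the syntaxin-binding proteins. It was at 244, 237, 234 and 269 TPM in MUT and 251, 255, 252 and 246 TPM in WT mice, with MUT mouse 4 above and the other 3 MUT mice below every WT mouse. The difference was -0.03 (SE 0.05, limma adjusted p = 0.997, unadjusted 95% interval -0.15 to 0.09). Stxbp3 (Munc18c), a partner of syntaxin-4, averaged 55.4 ± 4.05 TPM in MUT and 51.7 ± 3.19 TPM in WT mice, and Stxbp2 exceeded it by a median ratio of 4.61. Stxbp6 (amisyn), a brake on exocytosis, was at 23.8, 22.2, 22.1 and 26.1 TPM in MUT and 18.8, 23.8, 21.7 and 17.5 TPM in WT mice. WT mouse 2 lay within the MUT values, and the difference was 0.20 (SE 0.10, limma adjusted p = 0.98). Leaving out 1 mouse at a time, it ran from 0.14 without WT mouse 4 (SE 0.10, limma adjusted p = 0.999) to 0.28 without WT mouse 2 (SE 0.09, limma adjusted p = 0.59). Stxbp4 and Stxbp5 (tomosyn) averaged 16.1 ± 1.68 and 11.7 ± 0.820 TPM in MUT and 17.7 ± 1.51 and 11.3 ± 0.805 TPM in WT mice.

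The genes for complex disassembly had close values in all mice, with an SD between mouse means of 0.05 for Nsf and 0.06 for Napa on the log2 scale. Nsf was at 44.9, 45.1, 47.6 and 47.7 TPM in MUT and 46.7, 44.5, 45.9 and 48.5 TPM in WT mice, with a difference of -0.002 (SE 0.05, limma adjusted p = 1.00, unadjusted 95% interval -0.12 to 0.11). Napa averaged 202 ± 7.06 TPM in MUT and 210 ± 10.5 TPM in WT mice. Napa exceeded Nsf in all 24 tubules, by 4.19 to 4.66 times in single mice. Over the 36 tested SNARE genes the median SD was 0.116 on the log2 scale between tubules of a mouse and 0.0957 between mouse means of a genotype, against 0.190 and 0.156 over all 15013 tested genes. The SNARE genes also had a higher median level, 46.0 TPM against 15.7 TPM over all tested genes, so the spreads are not matched for level.

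The part of the fusion machinery outside the rule was read from lists. These lists hold the tethers and regulators that act with SNAREs, and 0 of their tested genes passed by limma. All 9 exocyst genes, for the complex that tethers vesicles at the plasma membrane, had higher values in MUT, where 54.3% of all tested genes did, with a median difference of 0.11 against 0.01 over all tested genes. Of the 9, 2 had an unadjusted p under 0.05, against 4.60% of all tested genes. These were Exoc4, at 30.8 ± 1.84 TPM in MUT and 27.3 ± 1.89 TPM in WT mice, and Exoc3, at 83.7 ± 7.69 TPM in MUT and 74.3 ± 2.90 TPM in WT mice (limma adjusted p = 0.98 for both). Of 32 synaptotagmin, complexin, Munc13 and related genes 13 were tested, of which 7 were higher and 6 lower, and 1 of the 13 had an unadjusted p under 0.05. This was the extended synaptotagmin gene Esyt2, at 25.03 ± 1.62 TPM in MUT and 21.1 ± 1.15 TPM in WT mice (difference 0.24, SE 0.07, limma unadjusted p = 0.0071, adjusted p = 0.98), and next by p came Syt11, at 10.5 ± 0.564 TPM in MUT and 11.7 ± 1.32 TPM in WT mice (limma adjusted p = 0.98). The 7 HOPS and CORVET genes, for lysosomal and endosomal tethering, had 2 higher and 5 lower, with Vps11 at a difference of -0.07 and Vps39 at 0.07. Of the 13 GARP, EARP and COG genes 8 were higher and 5 lower, with Cog3 at 0.09 and Cog7 at 0.10. Of the 7 Golgi and ER tethers 5 were higher, with Nbas at 0.21 and Gorasp1 at 0.10. Of the 7 tested SNARE and SNAP genes that the rule leaves out, 5 were lower, with Napg at -0.17 and Bnip1 at 0.09, and of 5 other Sec1/Munc18 genes 3 were higher, with Scfd2 at -0.16 and Scfd1 at 0.13. Aqp2 itself was at 15649 ± 4642 TPM in MUT and 17257 ± 7155 TPM in WT mice, and Ctnnb1, for beta-catenin, at 383 ± 16.7 TPM in MUT and 387 ± 11.9 TPM in WT mice; the mutation changes amino acids, so that level does not check the genotype labels.

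The promoter windows of Stx4a and Stx12 are shown because these were the SNARE genes with an unadjusted p under 0.05, and because beta-catenin acts in the nucleus through TCF/LEF factors. Each window runs from 250 bases before to 50 bases after the RefSeq start, 5′ to 3′ on the gene's strand, in build GRCm38.p6, which is not the build of the TPM table (GRCm39). That of Stx4a lies at chr7:127841558-127841857 on the plus strand and that of Stx12 at chr4:132884409-132884708 on the minus strand. Capitals mark the letters GGGCGG (a GC box), TGACG (the core of a cAMP response element), CACGTG (an E-box) and the TCF/LEF letters CTTTGAT or CTTTGAA, on either strand, and neighbouring GC boxes can overlap.
Stx4a: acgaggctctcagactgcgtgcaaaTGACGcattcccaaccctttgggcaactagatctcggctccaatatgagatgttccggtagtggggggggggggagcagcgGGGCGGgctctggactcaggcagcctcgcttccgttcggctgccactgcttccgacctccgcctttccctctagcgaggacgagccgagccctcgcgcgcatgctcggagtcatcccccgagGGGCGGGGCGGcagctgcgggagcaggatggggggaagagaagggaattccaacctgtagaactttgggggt
Stx12: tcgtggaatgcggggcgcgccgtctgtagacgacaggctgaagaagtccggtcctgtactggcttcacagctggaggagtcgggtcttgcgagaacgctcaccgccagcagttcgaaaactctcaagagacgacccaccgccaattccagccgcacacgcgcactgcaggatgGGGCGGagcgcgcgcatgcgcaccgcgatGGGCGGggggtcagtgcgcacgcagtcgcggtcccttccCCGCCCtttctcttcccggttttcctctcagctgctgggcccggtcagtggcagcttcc
Neither window held the TCF/LEF letters. The Stx4a window held 3 GC boxes and 1 TGACG, and that of Stx12 held 3 GC boxes. Over the SNARE genes, 36 of 41 had a window in the RefSeq table, and 1 of these, Vamp8, held the TCF/LEF letters, against 9.88% of the 27025 genes with a window. TGACG was in 13 of the 36, against 23.0% of all genes, and the full element TGACGTCA, which contains it, was in Gosr2, Napa and Stxbp3, against 2.03%. CACGTG was in 5 of the 36, against 8.09%, and GGGCGG in 26 of the 36, against 38.2%. The 27025 genes were not matched to the SNARE genes for transcript level or number of windows, and a gene counted when any of its windows matched. These shares are therefore not read as a trait of SNARE genes. A match is a description of letters, and no match says only that these letters are not in this window.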

How the data were processed

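TPM values, scaled for gene length and library size, were deposited by the authors as 1 table with 1 column per tubule; its 4 columns of group means, ratios and p-values were not used. Per the submitters' processing notes, RSEM 1.3.3, STAR and build GRCm39 were used, with no role stated. The sources used here give no annotation release, strand setting or filter, and TPM keep no depth, so no interval that needs depth is given. From 23580 to 32480 genes per library were above 0 TPM. The members, lists and tests were chosen with earlier results of these data known.

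The mouse was the replicate: log2(TPM + 1) was averaged over the 3 tubules of a mouse, a gene was kept when its mean reached 1 TPM (15013), and 4 MUT and 4 WT mice were compared with limma 3.58.1 in R 4.3.3 (empirical Bayes, mean-variance trend, no covariate, Benjamini-Hochberg over all tested genes, threshold 0.05). Levels are means of TPM with the SD over mouse means. The fit was tested on simulated data. Where a symbol repeated, the highest-mean row kept it. Log2 differences with SE are given for 8 SNARE genes set by name (Stx3, Stx4a, Snap23, Vamp2, Vamp3, Vamp8, Stxbp2, Nsf), for members at an unadjusted p under 0.05, and for others in order of p up to 12. For each list the members with the smallest p are named. Alternatives are given in the closing section.

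By the GENCODE M21 annotation, 14 of the 41 genes overlap a gene on the opposite strand, Stx4a among them, and without strand the reads of such a pair cannot be told apart. Of the 41, 2 genes enter the counts and group sums but are not reported here. Nsf, Stx6, Stxbp4 and Vti1b hold pseudogenes on the same strand, whose reads could be split. Vamp3 overlaps the protein-coding gene Camta1, at 14.0 TPM, on the same strand, and its part in the Vamp3 values was not tested.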

Additional observations from a re-analysis of the deposited data

Results flagged for a closer look

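Among the 78 sets of 4 mouse means (39 genes in 2 genotypes), 5 had a highest mouse far from the other 3 by Dixon's ratio, where chance flags about 1 in 20. The ratio was taken for these 39 genes only, so the share over all tested genes is not known, and the 5 are not read as a trait of SNARE genes. WT mouse 2 was the highest in all 5. It was at 53.0 TPM for Bet1 (the other WT mice 46.9 to 47.9 TPM), at 20.5 TPM for Stx16 (17.7 to 18.2 TPM), at 347 TPM for Stx7 (303 to 311 TPM), at 44.1 TPM for Vamp5 (25.6 to 28.5 TPM) and at 561 TPM for Vamp8 (513 to 518 TPM). This mouse also had the highest principal cell marker sum, 50855 TPM against 26982 to 32418 TPM in the other WT mice, and the lowest intercalated cell marker sum, 10956 TPM. The part of cell makeup in these values was not tested.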

How the results depend on the processing

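Of the tested SNARE genes (36, or 41 with no filter and 34 with the stricter one) 0 passed the threshold under any of 42 alternatives. These were pseudocounts of 0.1 and 5, no filter, a filter at 10 TPM, median-ratio scaling, averaging as TPM, the mouse as a random effect over 24 libraries, array weights, the replicate block, leaving out each of 8 mice, and, chosen after seeing the data, leaving out each of 24 tubules or the 7 tubules together. Over all genes the count was 1 with the mouse as a random effect and 0 otherwise; the cause was not tested. Stx12 and Stx4a had an unadjusted p under 0.05 in every alternative. The number of SNARE genes at that level was 4 with the mouse as a random effect (11.1%, against 5.64%, or 847, of all genes). With array weights it was also 4 (11.1%, against 6.69%, or 1005, of all genes). Stxbp6 and Stx7 were the genes added in both. Without WT mouse 2 the number was 5 (13.9%, against 7.71% of all genes), with Stx7, Stxbp6 and Vamp5 added. All genes at that level numbered 1554 of 43528 with no filter and 434 of 8842 with the filter at 10 TPM. Among the 12 genes with full statistics, direction reversed only in those with a difference near 0: Snap23 with median-ratio scaling (-0.0044), Vamp8 with array weights (0.023), and on leaving out mice or tubules Nsf (-0.027 to 0.020), Snap23 (-0.030 to 0.047) and Vamp8 (-0.017 to 0.028). Median-ratio scaling moved the median of all genes to 0.002 from 0.012. The mouse number as a replicate block gave 0 SNARE genes past the threshold. At an unadjusted p under 0.05 it gave 2 SNARE genes (5.56%) and 483 of all genes (3.22%). Same-numbered mice deviated with correlations from -0.0382 to 0.0194, so no shared deviation was seen. Whether they were paired by litter or handling cannot be told from this.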
